A study of Mus musculus with 6 samples.

Results

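The genes described here are 9 enzymes of pyrimidine and deoxynucleotide synthesis, namely Cad, Dhodh, Umps, Ctps, Tyms, Rrm1, Rrm2, Tk1 and Upp1. They were taken from the 53700 genes of the deposited expression table by their gene symbol, and each symbol matched 1 gene. The RNA came from SL4, a mouse colorectal cancer (CRC) line carrying luciferase that is grown in culture. In 3 libraries the cells carried the lentivirus pLV-SEMA6A, which drives stable overexpression of the membrane protein SEMA6A. In 3 libraries the cells were controls without it, here called pLV-Control. The sample labels call the controls only SL4 cells without overexpression of SEMA6A. The paper names the sequenced controls SL4 in some places and pLV-Control in others. Whether they carried a control lentivirus is therefore not settled. Values are TPM, a level per transcript length scaled to a fixed total in each library, so levels can be set side by side between genes. The sources used here name neither the promoter of the lentivirus nor any separately derived pLV-SEMA6A line, so the effect of SEMA6A cannot be told apart from a difference between the cell populations.

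Cells build pyrimidines from small precursors in a fixed order. Cad carries out the opening steps, Dhodh oxidises dihydroorotate at the mitochondrial inner membrane, Umps turns orotate into UMP, and Ctps makes CTP from UTP. Ribonucleotide reductase, built from the large subunit Rrm1 and the small subunit Rrm2, converts ribonucleotides to deoxyribonucleotides, and Tyms then methylates dUMP to dTMP with a folate as the carbon donor. Tk1 recovers thymidine in the cytosol, and Upp1 cleaves uridine to uracil. These enzymes are known for their link to proliferation, and several, with Tyms the best known in CRC as the target of fluoropyrimidines, are drug targets.

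Of the 9 genes, Tyms, Umps and Rrm2 rose in pLV-SEMA6A and Upp1 fell. Mean levels of the genes that rose were 1.77, 1.48 and 1.44 times those of pLV-Control, while Upp1 was at 0.538 times. A gene was counted as a differentially expressed gene (DEG) when limma, fitted to log2(TPM + 1), gave a Benjamini-Hochberg adjusted p below 0.05 together with a log2 fold change beyond 0.5 in either direction. All 9 genes were among the 12510 tested, which had a mean of 1 TPM or more. The 4 DEGs of 9 (44.4%) stand beside 15.9% of all genes tested. The 3 that rose stand beside 5.12% of all genes tested that were DEGs in that direction, and the 1 that fell beside 10.8% in the other. With the adjusted p alone, 7 of the 9 genes passed (5 higher and 2 lower), where 47.6% of all genes did. In the same 7 genes the libraries of the groups did not overlap, which held for 58.5% of all genes tested. Both of these shares are high over the whole table, so genes that passed the adjusted p but not the minimum fold are described by their values only.

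Before these results, the labels and the cells were checked. The overexpressed gene, Sema6a, was listed at 0 in all 3 control libraries, compared with 98.68, 118.42 and 112.22 TPM under pLV-SEMA6A, as labelled. Across genes, log2(TPM + 1) correlated at 0.967 to 0.978 within groups and at 0.941 to 0.957 between them. Markers of colon epithelium and carcinoma were nearly absent from these cells. Of 11 such markers Epcam, Cdx1 and Cdx2 were listed at 0 in all 6 libraries, and the list summed to between 1.91 and 3.04 TPM in pLV-Control and between 0.53 and 1.39 TPM in pLV-SEMA6A. The 8 leukocyte markers summed to at most 0.7 TPM in any library, with Cd3e, Cd3g, Itgam and Adgre1 at 0. The 8 fibroblast and endothelial markers summed to between 14.74 and 15.38 TPM in pLV-Control and between 9.84 and 11.58 TPM in pLV-SEMA6A, with Cdh5 at 0. Both non-leukocyte sums were lower in pLV-SEMA6A, but each of these differences rested mostly on 1 gene. The genes were Lgals4 (mean 2.147 against 0.363 TPM), the only epithelial marker with a mean of 1 TPM or more, and Pdgfrb (10.51 against 6.663 TPM). Of the other fibroblast markers, Pdgfra was lower (1.757 against 0.78 TPM), Dcn overlapped between the groups and Col1a2 was higher (0.42 against 0.87 TPM). The part of these lists in the results was not tested. In RNA from whole cultures, fewer cells expressing a gene and less RNA per cell cannot be told apart. Nothing in the labels says that the 3 libraries of a group came from separate cultures, so p-values measure only the spread between these libraries.

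Promoter windows of the members are printed because Tyms, Rrm2 and Umps moved together while Tk1 did not follow them, and because Rrm1 and Rrm2 encode the subunits of the same enzyme. RefSeq (GRCm38.p6) gave 11 start sites for 8 of the 9 members, and Dhodh had no entry. Each window is the 150 bases before the start, read 5′ to 3′ on the strand of the gene. Capitals mark the CCAAT box (CCAAT), the E-box CACGTG and the GC box (GGGCGG), each searched on both strands. The windows lie at chr5:30073626-30073775 on the minus strand for Tyms, chr12:24708104-24708253 on the plus strand for Rrm2, chr7:102441545-102441694 on the plus strand for Rrm1, chr16:33967039-33967188 on the minus strand for Umps and chr11:117826015-117826164 on the minus strand for Tk1.
Tyms: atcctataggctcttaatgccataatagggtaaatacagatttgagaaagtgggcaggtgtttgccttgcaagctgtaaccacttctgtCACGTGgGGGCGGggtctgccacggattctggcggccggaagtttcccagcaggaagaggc
Rrm2: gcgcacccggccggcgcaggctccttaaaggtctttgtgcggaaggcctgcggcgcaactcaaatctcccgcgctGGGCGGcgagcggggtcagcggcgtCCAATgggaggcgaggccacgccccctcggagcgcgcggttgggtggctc
Rrm1: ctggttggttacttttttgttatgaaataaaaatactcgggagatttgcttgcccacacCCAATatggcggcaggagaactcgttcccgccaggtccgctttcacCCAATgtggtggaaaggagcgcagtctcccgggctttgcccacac
Umps: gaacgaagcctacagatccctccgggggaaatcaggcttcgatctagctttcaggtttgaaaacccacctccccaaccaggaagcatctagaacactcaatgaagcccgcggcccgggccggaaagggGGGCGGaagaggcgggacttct
Tk1: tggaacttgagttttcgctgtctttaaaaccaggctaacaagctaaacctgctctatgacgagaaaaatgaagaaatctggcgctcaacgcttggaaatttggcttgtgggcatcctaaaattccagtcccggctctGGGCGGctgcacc

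The Tyms window held an E-box that begins 61 bases before the start and, next to it, a GC box at 54 bases. The Rrm2 window held a CCAAT box at 50 bases and a GC box at 75 bases, and Rrm1 held 2 CCAAT boxes, at 91 and 45 bases, with no GC box. Umps and Tk1 each held a GC box, at 22 and 13 bases. The motif shared by the 3 genes that rose was thus the GC box, which was also present before Tk1, before Cad (2 matches) and before the first start listed for Ctps and for Upp1. None of the 11 windows held any of 4 spellings of the E2F site (TTTCCCGC, TTTGGCGC, TTTCGCGC and TTTGCCGC, both strands). Among all 32851 RefSeq promoter windows of this length, 28.6% held a GC box, 24.5% a CCAAT box, 4.3% this E-box and 1.24% an E2F spelling. These are matches of letters and not binding sites, and a window without a match says only that these letters were not in it.

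**Figure D1:**
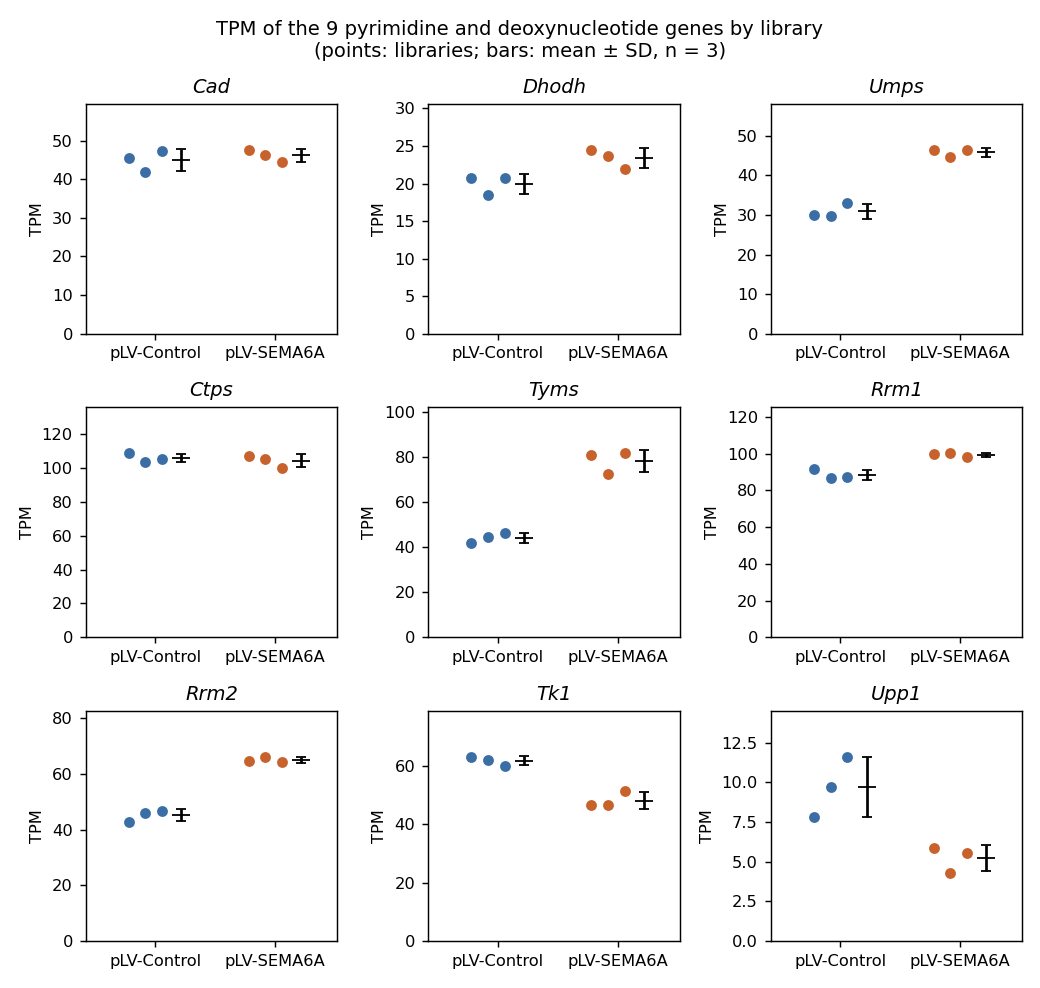
TPM of each of the 9 genes (vertical axes, from 0) in the 3 pLV-Control libraries (blue points) and the 3 pLV-SEMA6A libraries (orange points), with the mean and SD of each group as black bars. All pLV-SEMA6A points of Tyms, Umps, Rrm2, Rrm1 and Dhodh lie above those of pLV-Control, those of Tk1 and Upp1 lie below, and those of Cad and Ctps overlap.

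The route to UMP moved unevenly. Umps (ENSMUSG00000022814) measured 30.05, 29.73 and 33.11 TPM across the pLV-Control libraries, against 46.33, 44.6 and 46.53 TPM across the pLV-SEMA6A libraries. Every pLV-SEMA6A library was well above the highest control library, and the spread within each group was small beside the gap. The mean rose from 30.96 ± 1.87 to 45.82 ± 1.06 TPM (SD, n = 3 each). Its log2 fold change was 0.55 (standard error 0.051, limma adjusted p = 0.000287), and 5.33% of all genes tested had a higher fold change. Cad, the multifunctional protein that starts the route, had pLV-Control values of 45.54, 41.83 and 47.38 TPM and pLV-SEMA6A values of 47.63, 46.33 and 44.46 TPM. The groups overlapped throughout, and the log2 fold change was 0.039 with a 95% interval from −0.093 to 0.172 (limma adjusted p = 0.588), an interval that leaves out changes as large as that of Umps. Dhodh reached 20.69, 18.47 and 20.74 TPM in control libraries, compared with 24.51, 23.67 and 21.92 TPM under pLV-SEMA6A. Its groups did not overlap, but the gap was narrow. The difference of 17% of the control mean (log2 fold change 0.22, standard error 0.067, limma adjusted p = 0.0354) passed the adjusted p and not the minimum fold. The Dhodh adjusted p rested on single libraries, since it was 0.0548, 0.0918 and 0.0532 without pLV-Control replicate 1, 2 or 3, and 0.103 and 0.0906 without pLV-SEMA6A replicate 1 or 2. It was 0.065 with the replicate number as a block.

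Ctps had the highest level of the 9 genes in both groups. It measured 108.75, 103.79 and 105.47 TPM across the pLV-Control libraries, against 107.37, 105.6 and 99.96 TPM across the pLV-SEMA6A libraries, and the groups overlapped. The log2 fold change was −0.023 with a 95% interval from −0.113 to 0.066 (limma adjusted p = 0.632), and its sign turned after median centring of the libraries (0.07). For the enzymes that make UMP and CTP, the values therefore show a clear rise for Umps alone, with Dhodh slightly higher, and intervals for Cad and Ctps that lie on both sides of 0.

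Tyms (ENSMUSG00000025747) showed the largest rise of the 9 genes. It had pLV-Control values of 41.86, 44.44 and 46.29 TPM and pLV-SEMA6A values of 80.85, 72.65 and 81.84 TPM. The lowest pLV-SEMA6A library was far above every control library. The mean rose from 44.2 ± 2.23 to 78.45 ± 5.04 TPM (SD, n = 3 each). Fitted by limma, Tyms had a log2 fold change of 0.81 (standard error 0.06, 95% interval 0.668 to 0.957, limma adjusted p = 0.000107). Only 2.12% of all genes tested had a higher fold change. In order of mean level Tyms stood 6th of the 9 genes in pLV-Control, where its libraries overlapped those of Rrm2 and Cad, and 3rd in pLV-SEMA6A, where they overlapped those of no other member.

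The subunits of ribonucleotide reductase differed in the size of their change. Rrm2 (ENSMUSG00000020649), the small subunit whose level is known to limit the enzyme through the cell cycle, reached 42.66, 45.94 and 46.84 TPM in control libraries, compared with 64.54, 66.16 and 64.35 TPM under pLV-SEMA6A. The groups were far apart and the pLV-SEMA6A libraries were close together. The mean rose from 45.15 ± 2.2 to 65.02 ± 0.995 TPM (SD, n = 3 each). Its log2 fold change was 0.52 (standard error 0.044, limma adjusted p = 0.000187). This was just past the minimum fold, and without pLV-Control replicate 1, the lowest control library, the log2 fold change was 0.478 (limma adjusted p = 0.000573) and Rrm2 was no DEG. Rrm1, the large subunit, measured 91.54, 86.67 and 87.44 TPM across the pLV-Control libraries, against 99.98, 100.28 and 98.28 TPM across the pLV-SEMA6A libraries. All pLV-SEMA6A libraries were higher, by a small margin. Its log2 fold change of 0.17 (standard error 0.032, limma adjusted p = 0.00553) passed the adjusted p and not the minimum fold.

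The salvage and cleavage enzymes were lower. Tk1, the thymidine kinase of the cytosol, had pLV-Control values of 63.12, 62.15 and 60.14 TPM and pLV-SEMA6A values of 46.5, 46.56 and 51.34 TPM. The groups did not overlap, and pLV-SEMA6A replicate 3 was the closest to the controls. In TPM the mean was 61.8 ± 1.52 without and 48.13 ± 2.78 with pLV-SEMA6A (SD, n = 3 each). Tk1 had a log2 fold change of −0.36 (standard error 0.049, 95% interval −0.473 to −0.238, limma adjusted p = 0.00145), which passed the adjusted p and not the minimum fold. Its direction was thus opposite to that of Tyms, the other source of dTMP, and of Rrm1 and Rrm2. Tk1 stood 3rd of the 9 genes in pLV-Control with libraries clear of every other member, and 5th in pLV-SEMA6A, where its libraries overlapped those of Cad and, at their edge, Umps.

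Upp1 (ENSMUSG00000020407) had the lowest level of the 9 genes and the largest fall. It reached 7.83, 9.69 and 11.61 TPM in control libraries, compared with 5.85, 4.3 and 5.52 TPM under pLV-SEMA6A. All pLV-SEMA6A libraries were lower, although the control libraries were spread widely for so low a level. The mean fell from 9.71 ± 1.89 to 5.223 ± 0.816 TPM (SD, n = 3 each). Its log2 fold change was −0.78 (standard error 0.159, 95% interval −1.159 to −0.395, limma adjusted p = 0.00765). Of all genes tested, 94.2% had a higher fold change.

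Median centring, which sets each library on the median of the genes tested, raised the log2 fold change of every gene by 0.093. The median log2 fold change of all genes tested was −0.064, and 0.029 after centring. The DEGs of the whole table were 640 higher and 1347 lower, and 1002 higher and 961 lower after centring. The 9 genes kept 3 DEGs higher and 1 lower, the same 4 genes, and their median moved from 0.167 to 0.26. Centred log2 fold changes were 0.91 for Tyms, 0.65 for Umps, 0.61 for Rrm2, −0.26 for Tk1 and −0.68 for Upp1.

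**Figure D2:**
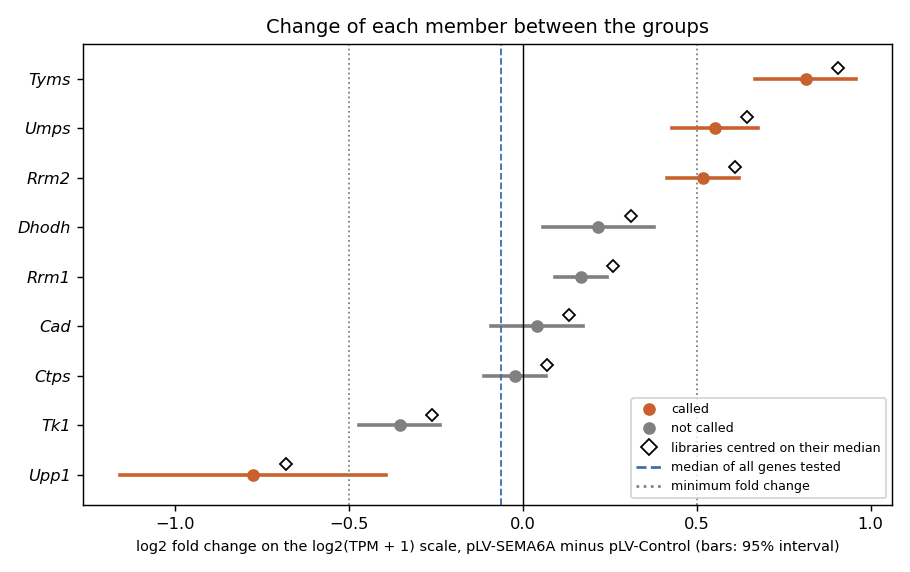
Log2 fold change of each gene on the log2(TPM + 1) scale, pLV-SEMA6A minus pLV-Control (points, horizontal axis), with 95% intervals as bars, DEGs in orange and other genes in grey. Diamonds give the median-centred value, the dashed line is the median of all genes tested (−0.064), and the dotted lines are the minimum fold of 0.5, which Tyms, Umps, Rrm2 and Upp1 passed.

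The order of the levels changed in the middle of the range. In pLV-Control it ran from Ctps and Rrm1 through Tk1 to Rrm2, Cad and Tyms, whose libraries overlapped, and then to Umps, Dhodh and Upp1, each clear of its neighbours. In pLV-SEMA6A the libraries of Ctps and Rrm1 overlapped at the top, followed by Tyms and Rrm2. Tk1, Cad and Umps then overlapped in turn, and Dhodh and Upp1 stayed lowest.

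Ratios of related genes within a library do not depend on how that library was scaled, and 8 pairs were compared, of which 7 are given here. With 3 libraries per group the smallest p of an exact two-sided permutation test is 0.1, and no ratio could pass 0.05. The ratio of Rrm2 to Rrm1 was 0.466, 0.53 and 0.536 in pLV-Control and 0.646, 0.66 and 0.655 in pLV-SEMA6A. The small subunit thus gained on the large subunit in every pLV-SEMA6A library, by 0.36 on the log2 scale (exact permutation p = 0.1, adjusted over the 8 pairs 0.114). The ratio of Rrm2b, the p53-inducible small subunit, to Rrm2 was 0.408, 0.391 and 0.461 against 0.222, 0.19 and 0.189. That is a log2 difference of −1.07, with no overlap.

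Tk1 to Tyms, the salvage and the de novo sources of dTMP, changed places. The ratio was 1.51, 1.4 and 1.3 in pLV-Control and 0.575, 0.641 and 0.627 in pLV-SEMA6A, so Tk1 was above Tyms in every control library and below it in every pLV-SEMA6A library (log2 difference −1.19). Umps drew level with Cad, from 0.66, 0.711 and 0.699 to 0.973, 0.963 and 1.05 (log2 difference 0.53). The groups did not overlap in either ratio.

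For uridine, the ratio of Upp1 to Uck2, a kinase that instead returns uridine to UMP, went from 0.131, 0.149 and 0.192 to 0.062, 0.0526 and 0.061, a log2 difference of −1.41. Tk1 to its mitochondrial counterpart Tk2 went the other way, from 3.64, 4.91 and 3.32 to 5.56, 5.72 and 5.98 (log2 difference 0.56), since Tk2 was lower still. Ctps to Ctps2 overlapped between the groups (log2 difference 0.29, exact permutation p = 0.3, adjusted 0.3). The other 6 pairs given here did not overlap and all had an exact permutation p = 0.1 and an adjusted value of 0.114.

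**Figure D3:**
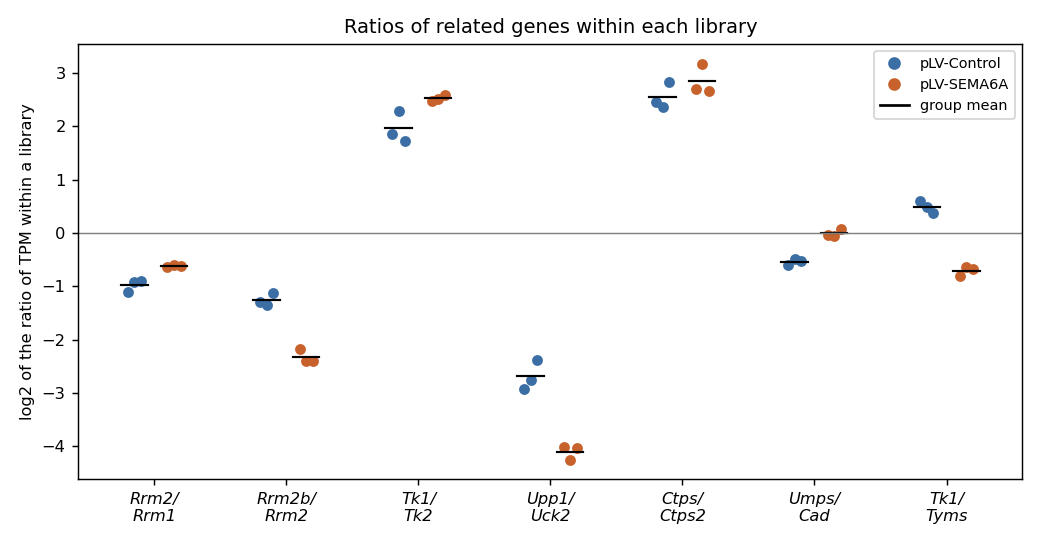
Log2 of the ratio of TPM of related genes within each library (vertical axis) for 7 pairs, with the 3 pLV-Control libraries in blue, the 3 pLV-SEMA6A libraries in orange and group means as lines. Tk1/Tyms passed from above 0 to below 0, Umps/Cad reached 0, and of these pairs only Ctps/Ctps2 overlapped between the groups.

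The other genes of the pathway were grouped in lists by function, 48 genes in all, of which 42 reached a mean of 1 TPM. Of these, 11 were DEGs (26.2%), 6 higher and 5 lower, beside 15.9% of all genes tested. By adjusted p 26 passed, 16 higher and 10 lower, where 47.6% of all genes did. After median centring the split of DEGs was 10 higher and 4 lower. Their median log2 fold change was 0.061, beside −0.064 over all genes tested. Genes below that mean included Dpys, Upb1, Slc28a1, Slc28a2 and Slc28a3.

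Enzymes that form and control deoxynucleotides held the most DEGs of these lists. Of 7 tested, 1 rose and 3 fell (57.1%, beside 15.9% of all genes tested), with a median of 0.087. After median centring 2 were DEGs higher and 2 lower. Each list had only 4 to 8 genes tested, so the counts by list are given as values only. They stand beside the same 15.9%, or 47.6% by adjusted p. Dtymk, which phosphorylates the dTMP that Tyms and Tk1 make, measured 89.33, 81.95 and 87.4 TPM across the pLV-Control libraries, against 136.28, 130.69 and 141.34 TPM across the pLV-SEMA6A libraries. The groups were far apart, with a log2 fold change of 0.65 (standard error 0.045, limma adjusted p = 8.27e-05). Samhd1, which hydrolyses dNTPs, went from 57.88, 56.5 and 58.05 to 32.05, 35.84 and 30.46 TPM. Every pLV-SEMA6A library was below every control library (log2 fold change −0.80, standard error 0.062, limma adjusted p = 0.000133). Cmpk2, a mitochondrial nucleotide kinase known to be induced by interferon, was at 6.5, 8.06 and 6.96 TPM and then at 0.71, 0.72 and 0.68 TPM, the largest change among the 42 pathway genes (log2 fold change −2.26, limma adjusted p = 2.82e-05). Rrm2b fell from a mean of 18.99 ± 2.27 TPM to 13.02 ± 1.16 TPM (SD, n = 3 each), a fitted log2 change of −0.51 (limma adjusted p = 0.00638). The Rrm2b value was under the minimum fold after centring (−0.416) and without pLV-Control replicate 3 (−0.417), pLV-SEMA6A replicate 2 (−0.486) or pLV-SEMA6A replicate 3 (−0.465). Dut, which removes dUTP and yields the dUMP that Tyms uses, was higher (163.2 ± 6.58 against 225.9 ± 9.84 TPM, SD, n = 3 each). This difference, 0.47 on the log2 scale (limma adjusted p = 0.000295), was under the minimum fold, and 0.559 after centring.

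Of the 7 folate enzymes that supply Tyms with its carbon unit, 2 rose, 5 were higher and 1 lower by adjusted p, and the median was 0.396. Mthfd1l, of the mitochondrial formate route, went from 44.66, 46.29 and 47.86 TPM to 75.21, 74.32 and 74.5 TPM. The groups were widely separated (log2 fold change 0.68, standard error 0.036, limma adjusted p = 3.05e-05). Shmt2, the mitochondrial serine hydroxymethyltransferase, rose from a mean of 264.6 ± 7.36 TPM to 388 ± 13.1 TPM (SD, n = 3 each), or by 0.55 on the log2 scale (limma adjusted p = 5.19e-05), which was 0.472 after quantile normalization and then under the minimum fold. Mthfd1, the cytosolic enzyme, was higher by 0.40 on the log2 scale (limma adjusted p = 0.000851), under the minimum fold. Mthfd2, its mitochondrial relative, was higher by 0.12 (limma adjusted p = 0.00462), and by 0.045 after quantile normalization (limma adjusted p = 0.147).

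Among 7 salvage kinases and transferases, 1 rose and 1 fell, and the median was −0.14. Uck2 rose from a mean of 61.76 ± 2.69 TPM to 88.88 ± 6.52 TPM (SD, n = 3 each), or by 0.52 on the log2 scale (limma adjusted p = 0.000808). It was under the minimum fold without pLV-Control replicate 1 (0.496), without pLV-SEMA6A replicate 1 (0.472) and after quantile normalization (0.494). Tk2 had pLV-Control values of 17.34, 12.66 and 18.1 TPM and pLV-SEMA6A values of 8.37, 8.14 and 8.58 TPM. It fell clear of the control spread (log2 fold change −0.85, standard error 0.13, limma adjusted p = 0.0023). Dguok, the mitochondrial kinase of purine deoxynucleosides, was lower by adjusted p (31.41 ± 1.97 against 22.05 ± 0.745 TPM, SD, n = 3 each). This difference, −0.49 on the log2 scale (limma adjusted p = 0.000747), was at the edge of the minimum fold, which it passed without pLV-Control replicate 3 (−0.53) or pLV-SEMA6A replicate 3 (−0.51). The other uridine kinase genes did not follow Uck2. Uck1 had means of 39.89 ± 3.04 and 36.12 ± 2.74 TPM (SD, n = 3 each) with overlapping groups (log2 fold change −0.14, limma adjusted p = 0.172). Uckl1, a uridine kinase-like protein, had means of 41.52 ± 3.79 and 30.9 ± 3.82 TPM (SD, n = 3 each). It was lower by adjusted p and under the minimum fold (log2 fold change −0.42, limma adjusted p = 0.0165), with an adjusted p of 0.0524 without pLV-Control replicate 3.

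Of 4 breakdown genes tested, Upp2, the paralog of Upp1, was the only DEG. It fell from a mean of 3.14 ± 0.54 TPM to 1.417 ± 0.437 TPM (SD, n = 3 each), a fitted log2 change of −0.78 (limma adjusted p = 0.0126), close to that of Upp1 at a lower level. Of 4 nucleotidases, Nt5c3b rose from a mean of 33.3 ± 1.28 TPM to 48.63 ± 4.22 TPM (SD, n = 3 each), or by 0.53 on the log2 scale (limma adjusted p = 0.00109), and 0.467 without pLV-SEMA6A replicate 3. Of 5 carriers, Slc25a33, a mitochondrial pyrimidine nucleotide carrier, had overlapping groups (log2 fold change −0.023, limma adjusted p = 0.741), and Slc29a1, the equilibrative nucleoside transporter, was higher by adjusted p (log2 fold change 0.43, limma adjusted p = 0.000872; 0.519 and past the minimum fold after centring).

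The 8 genes that carry UMP on to UTP and CTP had a median of 0.058, and 1 of them was a DEG. Nme2, the most abundant nucleoside diphosphate kinase here, had means of 799.6 ± 21.2 TPM without and 809.8 ± 5.02 TPM with pLV-SEMA6A (SD, n = 3 each) and a log2 fold change of 0.019 (limma adjusted p = 0.547). Its paralog Nme1 was higher by adjusted p (log2 fold change 0.44, limma adjusted p = 0.00049; 0.536 and past the minimum fold after centring). Nme1 and Nme2 share 11.8% and 47.9% of their 31-base stretches with other genes, mainly Gm20390, which was listed at 97.49 to 147.3 TPM, so their values are uncertain. Nme3 was the DEG, with 9.97, 5.84 and 6.15 TPM in the controls against 10.97, 14.79 and 10.13 TPM. The highest control library nearly reached the lowest pLV-SEMA6A library. Its log2 fold change of 0.66 (limma adjusted p = 0.0448) is uncertain, because 89.2% of its 31-base stretches occur in other genes, mainly Mrps34. The Nme3 adjusted p was 0.069 with the replicate block, and was 0.126, 0.126, 0.079, 0.121 and 0.0573 without pLV-Control replicate 2 or 3 or pLV-SEMA6A replicate 1, 2 or 3.

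**Figure D4:**
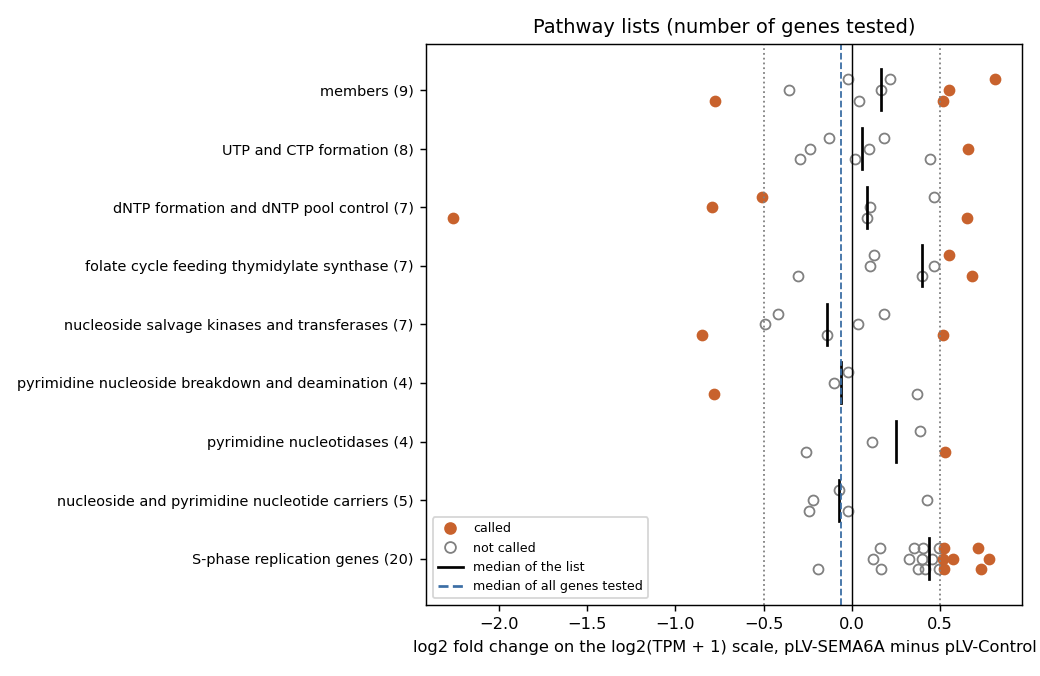
Log2 fold change of every tested gene (circles, horizontal axis, log2(TPM + 1) scale, pLV-SEMA6A minus pLV-Control) by list, with DEGs filled, the median of each list as a black line and the median of all genes tested (−0.064) as a dashed line. The folate enzymes (median 0.396) and the S-phase genes (median 0.435) lie mostly to the right, while the deoxynucleotide enzymes run from −2.258 for Cmpk2 to 0.653 for Dtymk.

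Rrm1, Rrm2, Tyms and Tk1 are known to be expressed with DNA replication, so 20 genes of the replication machinery were set beside them. Of these, 7 were DEGs (35%), all higher, beside 15.9% of all genes tested in either direction and 5.12% higher. By adjusted p 17 were higher and 1 lower, where 47.6% of all genes passed, and the median log2 fold change was 0.435. After median centring 11 were DEGs, all higher. Mcm2, Mcm3, Mcm5 and Mcm6, subunits of the replicative helicase, rose by 0.78, 0.72, 0.73 and 0.52 on the log2 scale (limma adjusted p from 1.41e-05 for Mcm2 to 0.000361 for Mcm3). Mcm6 was at 0.489 after quantile normalization, under the minimum fold. Gins1, Gins2 and Cdc6, which load or accompany that helicase, had log2 fold changes of 0.52, 0.58 and 0.51. Without pLV-Control replicate 2, these were 0.443, 0.496 and 0.447 and no longer past the minimum fold, and Cdc6 was at 0.47 without pLV-SEMA6A replicate 1. For Gins2, 66.2% of the 31-base stretches also lie in another gene, Gse1. Tyms, at 0.81, was higher than any of the 20, and Rrm2, at 0.52, was above their median of 0.435. Tk1, at −0.36, was below all of them, the lowest of the 20 being at −0.193. Whether the share of cells in S phase differed between the cultures behind these libraries was not tested here. In separate assays the paper reports that proliferation, read as cell viability, was lower with SEMA6A overexpression, while most of these replication genes were higher in RNA. It also reports smaller tumors in mice, with less PCNA protein by immunostaining. In the cultured cells here, Pcna RNA went from 161 ± 3.01 to 214.8 ± 4.07 TPM (SD, n = 3 each). Its log2 fold change was 0.41 (limma adjusted p = 6.39e-05), under the minimum fold, and 0.507 after centring. RNA in culture and protein in tumors are unlike measures, and their difference was not tested. The paper also used an EdU proliferation assay in both lines, there to examine ISG15 overexpression.

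Sequence shared with other genes ranged from none to 12.8% over the 9 enzymes. The share of a gene's 31-base transcript stretches found in other genes (GENCODE M21) was 12.8% for Rrm2, 11.4% for Tyms, 7.31% for Ctps, 5.43% for Umps, 5.35% for Rrm1, 4.94% for Tk1 and 1.32% for Dhodh, and it was 0 for Cad and Upp1. The main partner of Tyms, the pseudogene Tyms-ps, was listed at 0 to 0.09 TPM, and that of Rrm2, Gm48455, at 0. The main partner of Umps, Gm15829, was at 0 to 0.32 TPM. The differences of Tyms, Rrm2 and Umps were far larger than the values listed for these main partners. Those values come from the same quantification, so they cannot show how reads from shared stretches were divided. Tyms-ps held 326 of the 711 shared stretches of Tyms, and Gm48455 held 124 of the 356 of Rrm2. The levels of their other partners were not examined.

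The genes whose pattern over the 6 libraries was most like that of Rrm2, by Euclidean distance between control-centred log2(TPM + 1) profiles among 8176 genes with a mean of 10 TPM or more, were Arntl (distance 0.0235, log2 fold change 0.51) and Ctnna1 (distance 0.0343, log2 fold change 0.51). Those most like Upp1 were BC028528 (distance 0.297, log2 fold change −0.79) and Csrp2 (distance 0.31, log2 fold change −0.75). With 6 libraries in only 2 groups, this measure mainly reflects the size of the difference between the groups.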

How the data were processed

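Poly-A mRNA of SL4 cells was captured by the authors, fragmented, reverse transcribed with random primers and sequenced on an Illumina platform. The submitters' processing notes name HISAT, Bowtie2 and RSEM and the build mm39, with no versions or roles. The authors deposited TPM with 2 decimals for 3 libraries per group, and the supplement names DESeq2 for their comparison. TPM keeps no read counts, so depth is unknown, and library totals of TPM were 977400 to 986444. Columns of group means were not used.

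The deposited TPM values were tested as log2(TPM + 1) with limma 3.58.1 in R 4.3.3 (trend option, group as the only term, no other sample factor) over 12510 genes with a mean of 1 TPM or more, with Benjamini-Hochberg adjustment over all of them. Fold changes on this scale understate the change of low genes. The DEG criterion (adjusted p below 0.05 and absolute log2 fold change above 0.5) is the one the study's supplement gives with limma. The supplement states it under functional enrichment, and for the SL4 sequencing it names DESeq2 without a cutoff. Counts of DEGs here are therefore not those of the study. Within-library ratios were compared with an exact two-sided permutation test. The fit was tested on simulated data.

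Members, lists and tests were chosen with earlier results of these data known. Besides the members, every DEG of the functional lists was named, with up to 4 further genes of each list, those highest in mean TPM, and the genes of the ratio pairs. List genes below 1 TPM were named outside this rule. Gene coordinates on mm39 were not used here, and the results of some listed genes are not reported here. Promoter windows come from RefSeq (GRCm38.p6) and shared stretches from GENCODE M21. The alternatives were a pseudocount of 0.1, no filter or a mean of 5 TPM, median or quantile scaling, the replicate block, no trend option, other minimum folds, and leaving out each library.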

Additional observations from a re-analysis of the deposited data

How the results depend on the processing

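The same 4 members were DEGs under a pseudocount of 0.1, no filter, a mean of 5 TPM, median centring, quantile normalization, no trend option and the replicate block. The count of DEGs depended most on the minimum fold. Without one, 7 members, 26 pathway genes and 5959 of all genes passed, and a log2 minimum of 1 left 0, 1 and 385 (main counts 4, 11 and 1987). At that minimum no member could pass, as no member had a limma fold change beyond 1 in size, whatever its adjusted p. Leaving out each library in turn gave 3 to 4 members as DEGs, 6 to 7 members by adjusted p, 9 to 11 pathway genes and 1900 to 1975 of all genes. The log2 ratio differences ranged from 0.294 to 0.395 for Rrm2/Rrm1, −1.145 to −1 for Rrm2b/Rrm2, 0.444 to 0.725 for Tk1/Tk2, −1.537 to −1.259 for Upp1/Uck2, 0.125 to 0.431 for Ctps/Ctps2, 0.489 to 0.549 for Umps/Cad and −1.242 to −1.135 for Tk1/Tyms. Dhodh had an adjusted p of 0.0697 without the filter, where more genes were tested. Ctps, which was never past the adjusted p, ranged from −0.065 to 0.07 over scalings and models. Libraries with the same replicate number did not deviate together (correlations −0.079 to −0.023). The average for other numbers, 0.029, is no separate comparison, because deviations were centred within each group. With 3 pairs, these values cannot show whether such libraries share more than a number. With the replicate block 4 members were DEGs, 6 passed the adjusted p (Dhodh did not, at 0.065), and 1924 of all genes were DEGs. For the ratios, pairing by number gave p = 0.25 in an exact test for 6 of the pairs given and 0.5 for Ctps/Ctps2, where 0.25 is the smallest that 3 pairs allow. TPM gives no depth, so what sampling noise limits at the level of Upp1 and Upp2 is unknown.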
